A study of Mus musculus with 6 samples.

Results

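The carbonic anhydrase genes Car2, Car3, Car4, Car7, Car8, Car9, Car11, Car12, Car13 and Car14 were described in mouse neural stem cells with and without a deletion of Phf2. They were found by symbol among the 24503 genes of the deposited count table, and all 10 were present. The family was chosen by measured values, the KO and WT levels of Car3 and Car9 in these same libraries, so every KO against WT value of the 10 genes is a description and carries no p-value. Tests are given on the replicate number, which the choice did not use, and on genes outside the 10.

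RNA was sequenced from primary neural stem cells of the cortex of E13.5 mouse embryos, first grown as neurospheres and then on laminin, in FGF (10 ng/mL) and EGF (20 ng/mL). Knockout cells (KO, 3 libraries) came from embryos with the transgene Nestin-Cre Tg (B6.Cg-Tg(Nes-cre)1Kln/J) and the alleles Phf2flox/flox. Control cells (WT, 3 libraries) had the same Phf2flox/flox alleles and no Cre, so both groups carry the floxed alleles and the transgene itself differs between them. Nestin-Cre acts in neural progenitors, and Phf2 encodes a Jumonji-family histone demethylase. The labels do not say how many embryos a library holds or whether the libraries came from separate cultures, so each p-value reflects the spread among the samples at hand, and that spread may be technical.

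Carbonic anhydrases join carbon dioxide and water to bicarbonate and a proton, and so set how fast cells can buffer and export acid. Cytosolic, mitochondrial, membrane-bound and secreted forms exist, and a few related proteins have the same fold but lack the activity. In the brain the enzymes are best known from oligodendrocytes, astrocytes and the choroid plexus, and Car9 is a textbook target of the hypoxia-inducible factors (HIF).

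Total counts ranged from 33413444 to 42503715 in KO libraries and from 39120340 to 46890314 in WT libraries. Phf2 had 2315, 2041 and 1640 counts in KO 1, 2 and 3, against 4996, 3647 and 3670 in WT 1, 2 and 3, with no overlap (by edgeR's quasi-likelihood test the adjusted p was 0.182, and 0.000123 once the replicate number entered as a block). The labels do not name the exons that are deleted. The libraries numbered 1 stood apart from numbers 2 and 3 in both genotypes, and the labels do not say what a number stands for. A test of the replicate number called 6703 of 13683 genes, or 49.0%. For KO against WT edgeR called 8 genes without a block, or 0.0585%, and 1340 with the block, or 9.79%. The libraries had the markers of neural stem cells, in CPM (counts scaled to a common library size adjusted by TMM). Summed levels of the 12 markers were 9732 to 11330 CPM in KO and 9794 to 11470 CPM in WT. Within this sum 8 of the 12 were called for replicate number. For KO against WT with the block 1 of the 12 was called higher and 1 lower (3.33% and 6.46% of all genes). Hes5 was higher in KO (adjusted p = 0.0161, edgeR). Prom1 was lower, at 2.97 ± 0.389 CPM in KO and 7.54 ± 0.375 CPM in WT, with no overlap (SD, n = 3 each; adjusted p = 0.000204, edgeR). Markers of blood, muscle and fat were near 0: the 8 red blood cell markers summed to 0.730 to 1.37 CPM in KO and 0.457 to 1.12 CPM in WT, with Hbb-bs, Hbb-bt and Hbb-y at 0 in all 6 libraries, and the 8 muscle and fat markers to 0.189 to 0.505 CPM in KO and 0.297 to 0.435 CPM in WT.

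Per length, the cytosolic enzymes Car2 and Car3 made up most of the family's RNA. Levels per kilobase of the longest coding transcript, averaged over the 6 libraries, ran in the order Car2 (69.2 CPM per kb), Car3 (37.4), Car11 (3.89), Car13 (3.60), Car8 (3.42), Car14 (1.38), Car9 (0.924), Car12 (0.679), Car7 (0.108) and Car4 (0.00323). Car2 and Car3 did not overlap with each other or with Car11 in either genotype. The neighbours Car11 and Car13, Car13 and Car8, Car14 and Car9, and Car9 and Car12 overlapped in both genotypes, and Car8 overlapped with Car14 in WT alone. Using the median transcript length raised Car2 to 104 CPM per kb and left this order as it was.

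Over 16 family genes in the table, which add Car1, Car5a, Car5b, Car6, Car10 and Car15, the summed level was 142, 133 and 133 CPM per kb in KO 1, 2 and 3, against 113, 109 and 110 CPM per kb in WT 1, 2 and 3. Car3 held 37.6 ± 3.08% of this sum in KO and 21.4 ± 1.73% in WT (SD, n = 3 each). Car2 held 50.9 ± 3.84% in KO and 62.1 ± 4.45% in WT (SD, n = 3 each), while its own level hardly differed.

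**Figure D1:**
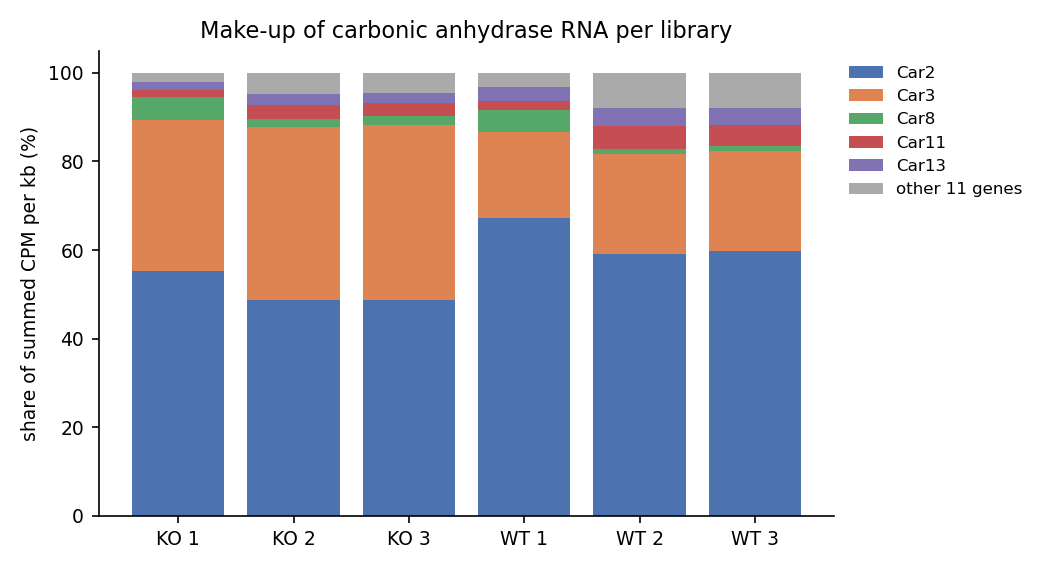
Share of each carbonic anhydrase in the summed CPM per kilobase of 16 family genes (vertical axis, %), one bar per library, KO libraries left of WT libraries. Car3 averages 37.6% in the KO libraries and 21.4% in the WT libraries; the grey top is the sum of the other 11 genes.

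Among the cytosolic enzymes, Car3 was the gene with the clearest separation. Car3 is a slow enzyme best known as an abundant protein of skeletal muscle, fat and liver. It lies on chromosome 3 (14863512 to 14872523, plus strand, GRCm38), 13.8 kb from Car2, in a run of 259 kb that also holds Car13 and Car1 and no other protein-coding gene. Its level was 80.9, 87.8 and 88.5 CPM in KO 1, 2 and 3, against 37.0, 40.9 and 41.5 CPM in WT 1, 2 and 3. Every KO library lay above every WT library, and within each group the 3 libraries were close. The log2 fold change was 1.11 ± 0.0990 (SE), with 1.13, 1.10 and 1.09 within the numbers 1, 2 and 3 (log2 of CPM plus 0.1, KO over WT). In a bulk sample more RNA per cell cannot be told apart from more cells that express the gene.

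Car2, the fast cytosolic enzyme of oligodendrocytes, choroid plexus and red blood cells, had 140, 116 and 116 CPM in KO 1, 2 and 3, against 136, 115 and 118 CPM in WT 1, 2 and 3. The groups overlapped fully and the log2 fold change was 0.01 ± 0.122 (SE). The oligodendrocyte lineage markers Mag, Mog and Mobp, genes of mature myelin, did not exceed 0.254 CPM in any library. Of the 9 tested markers of that lineage 2 rose and 2 fell with the block (3.33% and 6.46% of all genes). Bcas1 averaged 120 ± 7.99 CPM in KO and 52.5 ± 0.915 CPM in WT, and Nkx2-2 29.5 ± 1.73 CPM in KO and 69.2 ± 2.23 CPM in WT (SD, n = 3 each). Both were also called without the block (adjusted p = 0.0316, edgeR). The choroid plexus markers Folr1 and Prlr were at 0 in all 6 libraries and Ttr, the most abundant transcript of that tissue, did not exceed 0.0636 CPM. The 9 markers of that tissue nonetheless summed to 21.4, 59.2 and 60.6 CPM in KO 1, 2 and 3, against 13.8, 35.3 and 35.6 CPM in WT 1, 2 and 3, nearly all from Otx2 and Enpp2. Otx2 averaged 23.6 ± 10.8 CPM in KO and 6.28 ± 2.75 CPM in WT, with no overlap (SD, n = 3 each). Its adjusted p was 1.25e-05 with the block and 0.418 without it (edgeR). Enpp2 ranged from 10.1 to 29.8 CPM in KO and from 10.4 to 27.9 CPM in WT (adjusted p = 0.663 with the block, edgeR). The part of these markers in the values of Car2 and Car3 was not tested.

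Car13, a cytosolic enzyme whose gene (14641727 to 14663002, plus strand) opens the same run on chromosome 3, had 6.23, 7.52 and 7.58 CPM in KO 1, 2 and 3, against 8.31, 10.5 and 9.60 CPM in WT 1, 2 and 3. All KO values were lower than all WT values, with a log2 fold change of −0.41 ± 0.164 (SE), and −0.41, −0.47 and −0.34 within the numbers 1, 2 and 3. The neighbours on chromosome 3 therefore stood on different sides, Car3 higher in KO, Car13 lower and Car2 level. Car1, the fourth gene of the run (14766216 to 14808368, minus strand) and an enzyme of red blood cells, had 0, 1 and 0 counts in KO and 1, 0 and 0 counts in WT.

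Car7, a cytosolic enzyme of neurons, and Car4, an enzyme held on the outer membrane by a lipid anchor, were too low to be tested. Car7 had 8, 11 and 6 counts in KO 1, 2 and 3, against 14, 8 and 6 in WT 1, 2 and 3. Car4 had 1, 0 and 0 counts in KO and 0 in every WT library. A count of 0 allows a level of up to 0.0744 CPM in the WT library with the highest limit (3 counts, for counting error only). Thus 8 of the 10 genes passed the filter on low counts, and statements on tested genes refer to these 8.

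**Figure D2:**
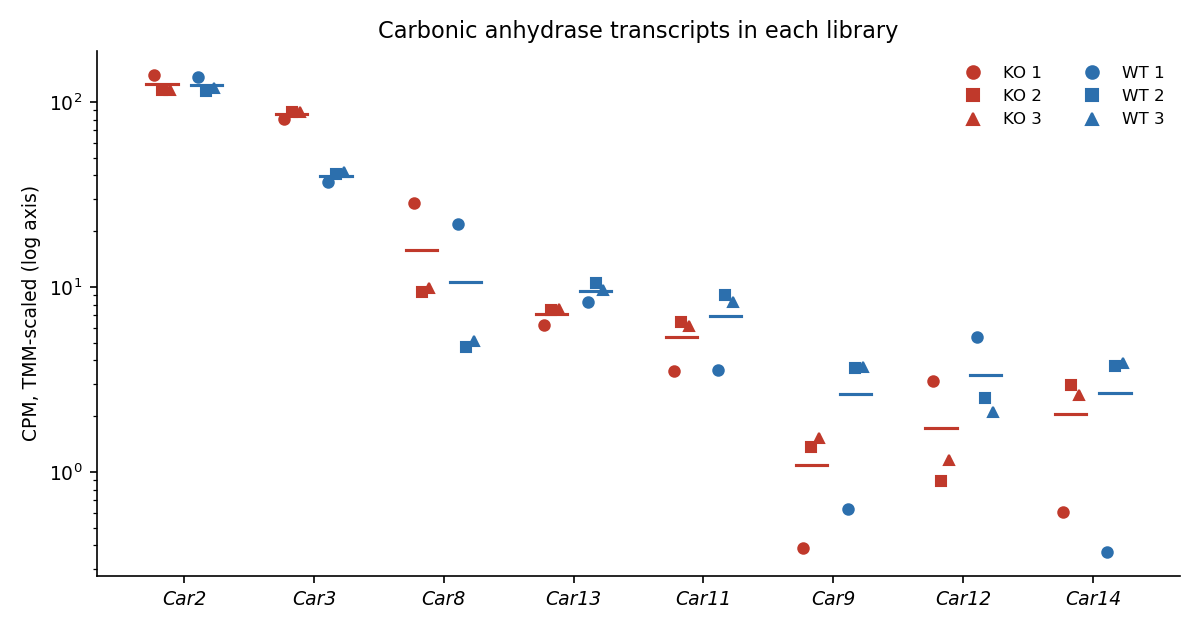
TMM-scaled CPM (vertical axis, logarithmic) of the 8 tested carbonic anhydrases in each library, KO in red and left of WT in blue, with 1 symbol for each replicate number and a bar at the group mean. Car3 lies at 80.9 to 88.5 CPM in KO and 37.0 to 41.5 CPM in WT, while for Car8, Car9, Car12 and Car14 the libraries numbered 1 stand far from numbers 2 and 3.

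The membrane enzymes with an outward-facing active site were low. Car9 lies on chromosome 4 (43506966 to 43513729, plus strand). A stretch of its promoter is shown because Car9 is the family's best-known HIF target and holds the core letters of the element that HIF binds, and one of Car14 because it holds them too. The RefSeq promoters (GRCm38.p6, 250 bases before to 50 after a start) were searched for ACGTG on both strands, which is also part of the E-box letters CACGTG. Capitals mark the match, read as CACGT on the strand of the gene. The Car9 stretch, chr4:43506993-43507022, plus strand, begins its match 18 bases before the RefSeq start, and the Car14 stretch, chr3:95904686-95904707, minus strand, 7 bases before its own. Both RefSeq starts lie downstream of the GENCODE starts from which gene positions are given here. The Car9 stretch lies inside the gene as GENCODE draws it. The Car14 stretch runs across the GENCODE start of its gene (95904691), which falls within the match:
Car9: ctcctatttccgatgCACGTacagcccgtc
Car14: caccacccccctcctCACGTac
The match is a description and not a site. Of 32851 promoter entries 19.6% held these letters. Of the 10 genes 6 had an entry, Car4, Car7, Car9, Car11, Car12 and Car14, and 3 of their 9 entries held a match, the third being that of Car4 just after the start. No match was in the window of Car12, but only ACGTG was searched and no other form of the element.

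Car9 had 0.389, 1.37 and 1.52 CPM in KO 1, 2 and 3, against 0.631, 3.64 and 3.67 CPM in WT 1, 2 and 3, from 16, 58 and 51 counts in KO and 29, 147 and 173 counts in WT. WT 1 lay below KO 2 and KO 3, so the groups overlapped, but within each number KO was the lower library. The log2 fold change was −1.28 ± 0.770 (SE) without the block and −1.22 ± 0.213 (SE) with it. The ratios were −0.58, −1.35 and −1.22 within the numbers 1, 2 and 3 (log2 of CPM plus 0.1). An antisense gene, Gm12454, shares 214 of the 2304 exon bases of Car9, and no source at hand states whether counting used strand, so reads of the pair cannot be told apart.

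Car12 had 3.11, 0.896 and 1.16 CPM in KO 1, 2 and 3, against 5.35, 2.50 and 2.12 CPM in WT 1, 2 and 3. Its order over the numbers was the reverse of Car9: the libraries numbered 1 were the highest of each genotype. Within each number KO was again lower, by log2 ratios of −0.76, −1.39 and −0.82, and the log2 fold change was −0.94 ± 0.589 (SE) without the block.

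Car14 had 0.608, 2.95 and 2.59 CPM in KO 1, 2 and 3, against 0.370, 3.72 and 3.90 CPM in WT 1, 2 and 3. KO was higher than WT in number 1 (log2 ratio 0.59) and lower in numbers 2 and 3 (−0.33 and −0.57). The log2 fold change was −0.27 ± 0.225 (SE) with the block. Its exons share 445 of 2543 bases with Aph1a, an abundant gene on the other strand, which had 130 to 143 CPM in KO and 142 to 159 CPM in WT, and reads of this pair cannot be told apart either.

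Car8 and Car11 encode related proteins without enzyme activity. Car8, which binds an inositol trisphosphate receptor and is known from cerebellar Purkinje cells, had 28.2, 9.34 and 9.87 CPM in KO 1, 2 and 3, against 21.9, 4.71 and 5.11 CPM in WT 1, 2 and 3. Over all libraries the groups overlapped, but within each number KO was higher, with log2 ratios of 0.37, 0.97 and 0.94. The log2 fold change was 0.58 ± 0.742 (SE) without the block and 0.73 ± 0.132 (SE) with it. Car11, whose protein is secreted and most abundant in brain, had 3.50, 6.48 and 6.12 CPM in KO 1, 2 and 3, against 3.57, 9.02 and 8.29 CPM in WT 1, 2 and 3. KO and WT were level in number 1 (log2 ratio −0.02) and KO was lower in numbers 2 and 3 (−0.47 and −0.43).

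**Figure D3:**
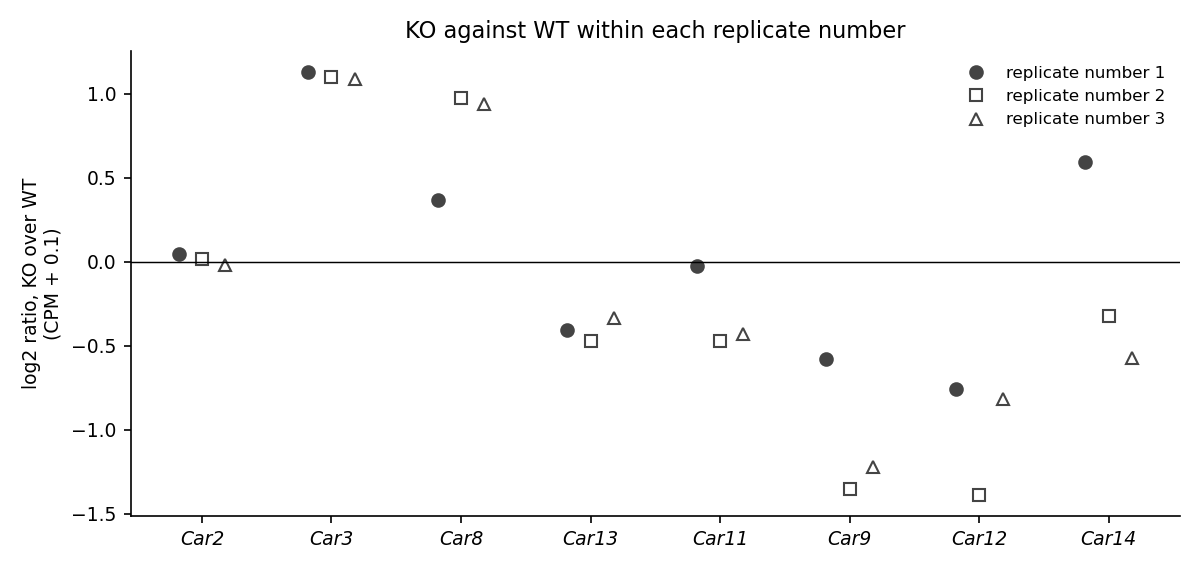
Log2 ratio of KO over WT (vertical axis, CPM plus 0.1) for the 8 tested carbonic anhydrases, taken within each replicate number; filled circles are number 1 and open symbols numbers 2 and 3. Car3 lies between 1.09 and 1.13 in all 3, while Car14 lies at 0.59 in number 1 and at −0.33 and −0.57 in numbers 2 and 3.

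As a description of the contrast by which the genes were chosen, 1 of the 8 tested genes, Car3, was called higher in KO without the block, where 0.0292% of all tested genes were called higher and 0.0292% lower. This call held when WT 1 was left out and was lost when any other library was left out. With the block 5 of the 8 were called (9.79% of all genes): Car3 and Car8 higher in KO (3.33% of all genes) and Car9, Car12 and Car13 lower (6.46%). In numbers 2 and 3 alone the calls were Car3 and Car8, higher, and Car9 and Car12, lower, where 5.40% of 13764 genes were called, 1.82% higher and 3.57% lower. KO and WT did not overlap for Car3, higher in KO like 4.49% of all genes, and Car13, lower in KO like 6.71%, against 11.2% for both directions. The median log2 fold change of the 8 was −0.38, against 0.005 over all tested genes. Nothing is read from these counts, since the same values led to the choice. Astrocyte markers differed by genotype in the same fit: of 8 tested, Sparcl1 and Aldoc rose and Aldh1l1, Gfap, Slc1a2 and Gja1 fell with the block. Aldh1l1 averaged 39.1 ± 2.89 CPM in KO and 159 ± 47.2 CPM in WT, and Sparcl1 1058 ± 501 CPM in KO and 496 ± 255 CPM in WT (SD, n = 3 each; adjusted p = 4.75e-05 and 1.68e-05 with the block, edgeR). Their part in the KO and WT values of Car3, Car8, Car9, Car12 and Car13 was not tested.

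Replicate number, which had no part in the choice, moved 6 of the 8 tested genes in edgeR's quasi-likelihood test with genotype as a covariate, where 49.0% of all genes were called. Car8, Car12 and Car2 were higher in the libraries numbered 1 (24.1% of all genes were called and higher there). Car9, Car11 and Car14 were lower in them (24.9% of all genes). Car8 in number 1 was 2.94 times the mean of numbers 2 and 3 in KO and 4.46 times in WT (adjusted p = 1.08e-05, edgeR). Car12 was 3.03 times in KO and 2.31 times in WT (adjusted p = 0.000621, edgeR). Both genes thus had 1 high library of 3 in each genotype.

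Car14 in numbers 2 and 3 was on average 4.55 times its level in number 1 in KO and 10.3 times in WT (adjusted p = 0.00011, edgeR). Car9 was 3.70 times in KO and 5.80 times in WT (adjusted p = 0.000191, edgeR), and Car11 1.80 times in KO and 2.43 times in WT (adjusted p = 0.000664, edgeR). For these genes the gap between numbers was wider than that between genotypes. Car2 was only 1.21 times higher in number 1 in KO and 1.17 times in WT (adjusted p = 0.0231, edgeR), and over the alternatives its adjusted p ran from 0.00246 to 0.349: it did not pass with upper-quartile scaling (0.0661) or without WT 1 (0.195), WT 2 (0.0572), KO 1 (0.349) or KO 2 (0.0514). Car3 (adjusted p = 0.248, edgeR) and Car13 (0.153) did not pass. Their log2 ratios of number 1 over the mean of the others were −0.12 in KO and −0.16 in WT for Car3, and −0.27 in both genotypes for Car13. Markers of neural stem cells and of other cell types moved with the number. Of the 12 stem cell markers 8 were called for it (49.0% of all genes), 7 with number 1 lower and 1 with number 1 higher. Hes5 had 23.4, 312 and 290 CPM in KO 1, 2 and 3, against 18.3, 232 and 255 CPM in WT 1, 2 and 3. Nes had 1748, 758 and 807 CPM in KO 1, 2 and 3, against 1738, 687 and 712 CPM in WT 1, 2 and 3. The 8 astrocyte markers summed to 950.5, 2336 and 2308 CPM in KO 1, 2 and 3, against 744.6, 1708 and 1835 CPM in WT 1, 2 and 3. Of these 8 markers 6 were called for the number (49.0% of all genes). Gfap, the astrocyte filament, had 3.70, 64.0 and 63.3 CPM in KO and 5.33, 149 and 159 CPM in WT. The part of these markers in the values of Car9, Car11 and Car14 was not tested.

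**Figure D4:**
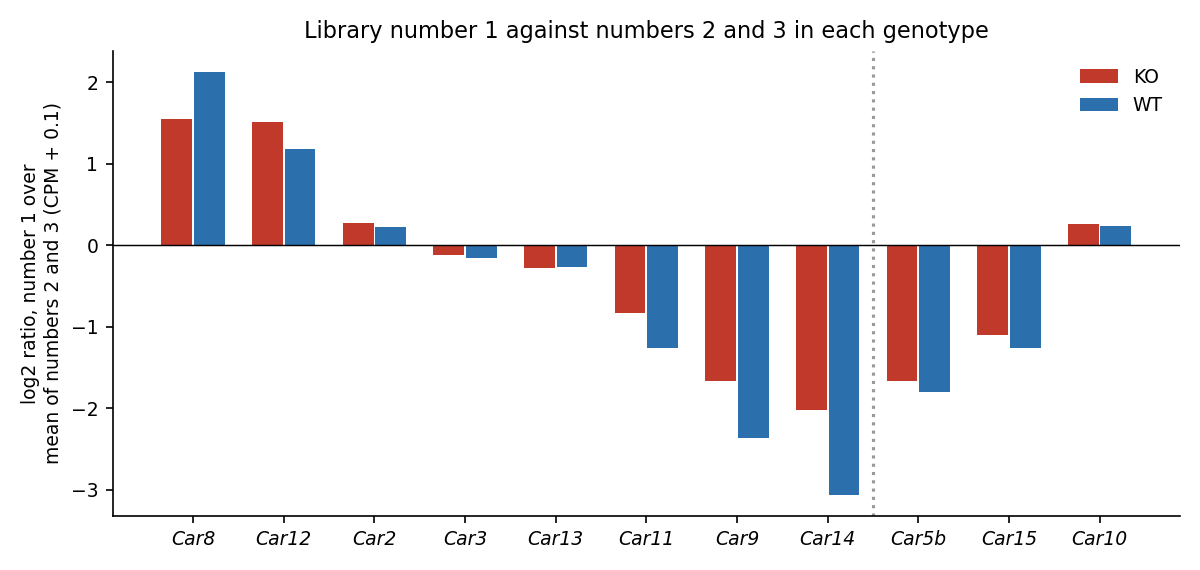
Log2 ratio of the library numbered 1 over the mean of numbers 2 and 3 (vertical axis, CPM plus 0.1) in KO (red, left) and WT (blue, right), for the 8 tested carbonic anhydrases and, right of the dotted line, 3 tested family genes outside the 10. Both genotypes point the same way for each gene, from 1.55 in KO and 2.13 in WT for Car8 to −2.02 in KO and −3.06 in WT for Car14.

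Of the 6 family genes outside the 10, Car5b, Car10 and Car15 passed the filter. Car10, a further related protein without activity and abundant in neurons, was the only one called for KO against WT and was named after its values were seen. It had 4, 3 and 2 counts in KO 1, 2 and 3, against 36, 32 and 24 counts in WT 1, 2 and 3. All KO libraries lay below all WT libraries, and the summed counts of 9 in KO and 92 in WT gave a KO over WT ratio of 0.111 (95% exact interval 0.0494 to 0.221, for counting error only). Car10 fell with the block (adjusted p = 0.00188, edgeR) and did not pass without it (0.101). Neuronal markers moved too: of 7 tested 2 fell with the block, Syt1 and Stmn2 (6.46% of all genes). The sum of the 8 listed was 652.5 to 777.3 CPM in KO and 566 to 777.9 CPM in WT. Most of this sum was Map2, with 568 to 734 CPM in KO and 448 to 710 CPM in WT. The part of these markers in the values of Car10 was not tested. Car5b, a mitochondrial enzyme, averaged 6.96 ± 3.64 CPM in KO and 7.60 ± 4.16 CPM in WT (SD, n = 3 each), and differed by number (adjusted p = 1.58e-05, edgeR) but not past the threshold by genotype (0.623 with the block). Car15, a lipid-anchored enzyme, averaged 0.632 ± 0.274 CPM in KO and 0.724 ± 0.475 CPM in WT (SD, n = 3 each; adjusted p = 0.845 with the block, edgeR), and shares 1253 of its 1906 exon bases with Gm20518.

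Carbonic anhydrases work with transporters of bicarbonate, protons and lactate. Over these lists, the other family genes, and lists of HIF factors and HIF targets, edgeR called 0 of 81 tested genes for KO against WT without the block and 13 with it (0.0585% and 9.79% of all genes). Without the block 7 of the 81 had an unadjusted p under 0.05, against 795 of all 13683 tested genes. DESeq2 without the block called 1, Car10, where it called 241 genes in all. With the block 3.33% of all genes rose and 6.46% fell. Of 12 tested bicarbonate and anion exchangers 1 rose and 1 fell. The sodium bicarbonate carrier gene Slc4a7 averaged 135 ± 33.9 CPM in KO and 103 ± 36.5 CPM in WT (SD, n = 3 each), and was higher in KO within each number (adjusted p = 0.0158 with the block, edgeR). Slc4a8, a sodium-driven exchanger, had 14.7, 20.5 and 19.8 CPM in KO, against 20.2, 35.8 and 27.8 CPM in WT (0.00329). Neither was called in numbers 2 and 3 alone, and of the pair Slc4a8 was called with number 1 as a block after summing KO 2 and KO 3.

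Of 13 tested proton exchangers, channels and sensors, 2 fell with the block and 0 in numbers 2 and 3 alone (6.46% and 3.57% of all genes fell). Slc9a3r2, a scaffold of proton exchangers, averaged 8.79 ± 1.27 CPM in KO and 11.8 ± 2.91 CPM in WT (SD, n = 3 each; adjusted p = 0.0435 with the block, edgeR), and was lower in KO within each number. It was not called with number 1 as a block after summing KO 2 and KO 3.

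Of 10 tested genes of lactate and monocarboxylate transport, 1 rose and 1 fell with the block (3.33% and 6.46% of all genes). Slc16a3, the lactate exporter of glycolytic cells, averaged 15.6 ± 12.6 CPM in KO and 8.61 ± 6.52 CPM in WT (SD, n = 3 each; adjusted p = 0.0288 with the block, edgeR), and was called in numbers 2 and 3 alone but not with number 1 as a block after summing KO 2 and KO 3. In number 1 its level was low in both genotypes, as for Car9, at 1.12 CPM in KO and 1.22 CPM in WT. Emb, a chaperone of the lactate carriers, averaged 1.93 ± 0.886 CPM in KO and 3.44 ± 1.38 CPM in WT (SD, n = 3 each; 0.00889 with the block).

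Of the 13 HIF factors and oxygen sensors edgeR called 0 in either fit, and DESeq2 without the block called 0. At an unadjusted p under 0.05 edgeR had 0 of them without the block and 4 with it, against 795 and 3246 of all 13683 tested genes. For replicate number 4 were called (49.0% of all genes). Hif1a averaged 263 ± 12.7 CPM in KO and 251 ± 32.6 CPM in WT, and Arnt2, its partner, 240 ± 16.6 CPM in KO and 234 ± 14.5 CPM in WT (SD, n = 3 each). Of 30 HIF target genes, 5 rose and 1 fell with the block (3.33% and 6.46% of all genes). Slc2a1, the main glucose carrier, had 76.6, 66.2 and 63.4 CPM in KO 1, 2 and 3, against 62.0, 46.1 and 47.5 CPM in WT 1, 2 and 3 (adjusted p = 0.0049 with the block and 0.770 without it, edgeR). Adm, a vasoactive peptide gene, averaged 25.9 ± 10.8 CPM in KO and 18.9 ± 11.5 CPM in WT, and rose (0.0128 with the block). Ddit4, an inhibitor of mTOR signalling, averaged 80.0 ± 28.1 CPM in KO and 103 ± 32.5 CPM in WT, and fell (0.00601 with the block; SD, n = 3 each). The median log2 fold change of the 30 targets with the block was 0.05, against 0.007 over all genes. In numbers 2 and 3 alone 5 rose and 1 fell (1.82% and 3.57% of all genes). With number 1 as a block after summing KO 2 and KO 3, 1 rose, Slc2a1, and 1 fell, Ddit4, and Adm was not called. Replicate number called 19 of the 30, 13 with number 1 lower and 6 with number 1 higher (49.0% of all genes called).

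**Figure D5:**
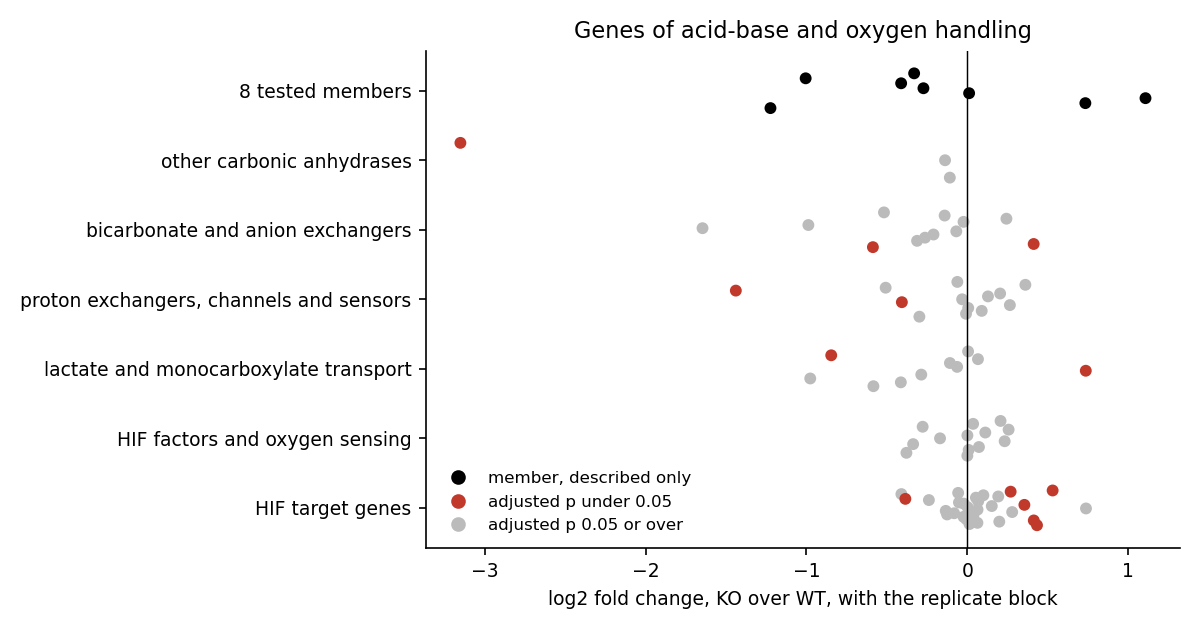
Log2 fold change of KO over WT with the replicate block (horizontal axis) for every tested gene of the 8 carbonic anhydrases (black, described only) and of 6 lists of acid-base and oxygen-handling genes, red where the adjusted p was under 0.05. Car10, among the other carbonic anhydrases, lies at −3.15, and the HIF targets Slc2a1 and Adm at 0.41 and 0.53.

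Patterns over the 6 libraries like those of Car3 and Car9 were looked up among 11151 genes with at least 2 CPM, by Pearson's r of log2 CPM, used only to rank them. The highest 4 for Car3 were Lix1, the homeobox gene En2, the acyl-CoA synthetase gene Acsl3 and Wls, which carries Wnt proteins to the cell surface. Wls averaged 139 CPM in KO and 83.1 CPM in WT and Acsl3 237 CPM in KO and 200.5 CPM in WT. The highest 4 for Car9 were Rnf180, a ubiquitin ligase gene, Rhbdl3, a rhomboid family gene, Tmem150a and Svip. Rhbdl3 had 4.82, 12.9 and 12.9 CPM in KO 1, 2 and 3, against 6.96, 24.4 and 27.0 CPM in WT 1, 2 and 3, low in number 1 and lower in KO within each number. The log2 fold change without the block was −0.93 for Rhbdl3, against −1.28 for Car9. It was smaller for Rnf180 (−0.28), Tmem150a (−0.31) and Svip (−0.33), so a high r did not mean a change of like size.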

How the data were processed

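The deposited table holds raw gene counts as whole numbers. The submitters' processing notes list RSEM, Bowtie2, Trim Galore, cutadapt and FastQC, and the build mm10. No source at hand gives versions, annotation, strand setting or rounding. Counts entered every test as deposited. Groups and replicate numbers came from the sample titles.

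Genes were kept by filterByExpr (13683 of 24503), scaled by TMM and tested in R 4.3.3 with edgeR 4.0.16 (glmQLFTest, robust, two-sided, Benjamini-Hochberg over all tested genes, adjusted p under 0.05 called). DESeq2 1.42.0 was an alternative. Standard errors are the log2 fold change over the square root of F. The test was checked on simulated data. Replicate number was tested as 3 levels. Ratios within a number use CPM plus 0.1.

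Deviations from the group means correlated across genes with r = 0.854, 0.604 and 0.58 for WT and KO of numbers 1, 2 and 3, over the limit of 0.1, so the numbers were used as pairs, on these values and not on the labels. Numbers 2 and 3 were not told apart (0.633 and 0.578 across them). KO 2 and KO 3 differed by more than counting noise (median chi-square 1.02 per gene, against 0.455), but less than any other pair of libraries.

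Positions and lengths are from GENCODE M21 (GRCm38, the assembly mm10 names), promoters from RefSeq. Genes named outside the 10 are, per list, up to 3 called with the block by lowest p, or else the 2 highest; not every gene this rule names is reported here. The 10 genes and the lists were chosen with earlier results of these data known.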

Additional observations from a re-analysis of the deposited data

How the results depend on the processing

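The count of genes called for KO against WT without the block was 8 with DESeq2 size factors and with no filter, and 6 with upper-quartile scaling, which called none of the 10 carbonic anhydrases. It was 241 with DESeq2, and 0 to 21 when 1 library was left out (21 without WT 1 and 0 without any other, with 499 to 864 at an unadjusted p under 0.05 in edgeR), and 0 with KO 2 and KO 3 summed (495 unadjusted). With the replicate block it was 1340, with DESeq2 and the block 1194, with upper-quartile scaling and the block 1310, with no filter and the block 1661, in numbers 2 and 3 alone 743, and 688 with number 1 as a block after summing KO 2 and KO 3. For the genes of the 6 lists, 0 without the block, these counts were 13 with the replicate block, 14 with DESeq2 and the block, 15 with upper-quartile scaling and the block, 18 with no filter and the block, 8 in numbers 2 and 3 alone, and 6 with number 1 as a block after summing KO 2 and KO 3; DESeq2 without the block called 1, Car10. The causes were not tested.

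Without the block the call of Car3 was lost with upper-quartile scaling, with KO 2 and KO 3 summed, and on leaving out any library but WT 1, though its log2 fold change stayed between 1.07 and 1.15 over all 17 alternatives. The call of Car13 with the block was lost with DESeq2 and the block, and with number 1 as a block after summing KO 2 and KO 3. It was also absent in numbers 2 and 3 alone. Those of Car3, Car8, Car9 and Car12 held in each of these settings. The settings refit the same libraries whose KO and WT values led to the choice, so nothing is read from these calls. The log2 fold change of Car13 ranged from −0.49 to −0.32, and that of Car11 from −0.68 to −0.14. Car9 ranged from −1.74 (without WT 1) to −0.87 (without KO 1), and Car12 from −1.70 (without KO 1) to −0.40 (without WT 1). Leaving out KO 1 turned Car8 to −0.14 and Car14 to 0.06, and leaving out WT 1 took Car8 to 1.70 and Car14 to −0.89. These leave number 1 in 1 genotype alone. Replicate number called 4577 to 8961 genes and 5 or 6 of the 8 carbonic anhydrases over its alternatives. Counts of 16 to 184 limit Car9 and Car14.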
